A study of Bos taurus with 18 samples.

Results

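The subject here is whether the effect of a 5 times higher dose of epigenetic modifiers (EM) on DNA methylation differed between high and low glucose in EBTr cells. It was examined as the interaction (High ×5 minus High Control) minus (Low ×5 minus Low Control), with the single contrasts given beside it to show how it was made up. EBTr is a fibroblast-like line from bovine embryonic trachea, and methylation was measured by reduced representation bisulfite sequencing (RRBS). The interaction was defined by the treatments alone, although it was chosen with earlier results of these data known. It used 12 of the 18 libraries and all 31500 CpGs in the table. The 12 libraries were 3 each of Low Control and Low ×5 (glucose 1 g/L) and of High Control and High ×5 (glucose 4.5 g/L). EM were methionine, choline, folate and vitamin B12, which Control held at the level of the basal medium. The labels give all of them at 5 times that level in ×5, whereas the study's methods limit methionine to a smaller excess. All cells were passaged in their treatment medium before harvest, and they are all of 1 cell line. Nothing states that the 3 libraries of a treatment came from separate cultures, so that p-values measure the spread between these libraries, which may be technical.

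Folate, vitamin B12, choline and methionine feed the methylation cycle, in which homocysteine is remethylated to methionine and methionine is activated to S-adenosylmethionine, the methyl donor of the DNA methyltransferases. Glucose supplies carbon and ATP to the same network, among others through serine, which charges folate with methyl groups. Methylation in fibroblasts is high over most of the genome and low at CpG islands of active promoters.

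Each value in the table was an M-value, the log2 ratio of methylated to unmethylated signal at 1 CpG in 1 library. A level in percent was computed from it as the share the ratio implies. A change of a treatment in M-values is called a difference, and the interaction is a difference of differences, which is negative where ×5 lowered methylation more, or raised it less, in high than in low glucose. The depth of the libraries and CpGs is unknown from these values, so that no counting error could be given. No genome of the study's build, bosTau8, was used here, so that positions are given without exon, intron or UTR context and no sequence is shown. Gene names are those of the closest start site in the study's supplementary tables, which often lies far from the CpG. They say which gene is near, not which gene holds the CpG.

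The mean level over all CpGs moved in opposite directions with ×5 in the 2 glucose concentrations. Mean levels were 69.6%, 67.8% and 67.2% in Low Control, and 70.0%, 69.3% and 69.1% in Low ×5. They were 69.6%, 68.8% and 69.2% in High Control, and 68.7%, 67.6% and 68.6% in High ×5. The 3 High ×5 libraries all lay below the 3 High Control libraries, whereas Low Control overlapped Low ×5 through its library 1. ×5 differed from Control by -0.912 percentage points in high and by 1.28 points in low glucose, and the interaction was -2.19 points. An exact two-sided permutation test gave p = 0.04, with EM labels permuted within each glucose concentration over 400 arrangements, of which the smallest possible p is 0.005. This test takes no ×5 difference at either concentration as its null. Leaving out any of 8 libraries in turn moved the p above 0.05, up to 0.09 without Low ×5 library 1, and the interaction then ranged from -2.89 to -1.68 points over all 12 omissions.

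The spread of the M-values within a library showed the same order. Its SD over CpGs was 1.77, 1.63 and 1.58 in Low Control, 1.83, 1.79 and 1.77 in Low ×5, 1.78, 1.74 and 1.78 in High Control, and 1.68, 1.63 and 1.74 in High ×5. All 3 Low ×5 libraries lay above all 3 Low Control libraries, and 2 of the 3 High ×5 libraries lay below every High Control library. The interaction of the SD was -0.21 (exact permutation p = 0.01). A wider spread means more values near full or near absent methylation. An offset added to the reads draws values from few reads towards 0. It can move the SD and the levels of CpGs near either end, here and in the classes below. Offset and depth are unknown, and their part was not tested. CpGs over 90% made up 16.2% ± 1.41 (SD, n = 3) of CpGs in Low ×5, 14.9% ± 1.09 in High Control, 12.1% ± 1.71 in High ×5 and 11.6% ± 3.75 in Low Control. Their interaction was -7.48 points (exact permutation p = 0.02).

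**Figure D1:**
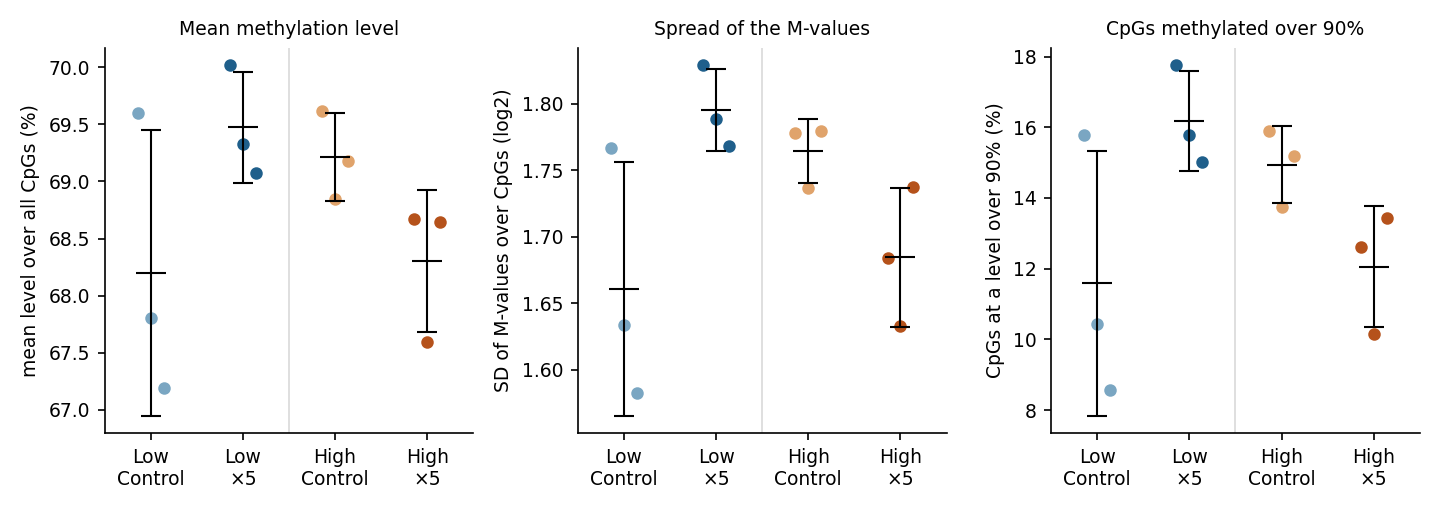
Mean methylation level over CpGs (%), SD of the M-values over CpGs (log2) and share of CpGs over 90% (%) in each of the 12 libraries, with points for libraries and a bar for the mean ± SD of 3. Axes do not start at 0. In each panel Low ×5 lies highest by its mean, with 69.5%, 1.80 and 16.2%, and Low Control and High ×5 lie lowest, with Low Control library 1 apart from the other Low Control libraries.

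The interaction went opposite ways at CpGs of low and of high methylation. At the 377 CpGs with a mean level under 10% over the 18 libraries, the level was 7.64% ± 2.21 in Low Control, 4.65% ± 0.503 in Low ×5, 5.28% ± 0.701 in High Control and 6.40% ± 1.10 in High ×5 (SD, n = 3 each). Their interaction was 4.12 points upward (exact permutation p = 0.02, adjusted p = 0.04 over 4 classes). At the 3368 CpGs over 90% the level was 91.6% ± 1.51, 93.4% ± 0.414, 93.1% ± 0.265 and 91.9% ± 0.714 in the same order. There the interaction was -2.97 points (exact permutation p = 0.01, adjusted p = 0.04). CpGs from 50 to 90% had an interaction of -3.09 points (exact permutation p = 0.03, adjusted p = 0.04). CpGs from 10 to 50%, with an interaction of 1.21 points, did not pass the threshold (exact permutation p = 0.05, adjusted p = 0.05). With each library left out in turn, the exact permutation p rose to at most 0.07 under 10%, 0.08 from 50 to 90% and 0.05 over 90%.

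The median interaction in M-values fell from 1.09 in the lowest class through 0.06 and -0.22 to -0.50 in the highest. After quantile normalization, which gives all libraries the same distribution, these medians were 0.19, 0.05, 0.04 and -0.03. The trend with level was largely gone once the libraries' distributions were made equal. That step acts on such a trend whatever its source, so that nothing is concluded from its loss. The part of the library spread in these results was not tested.

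**Figure D2:**
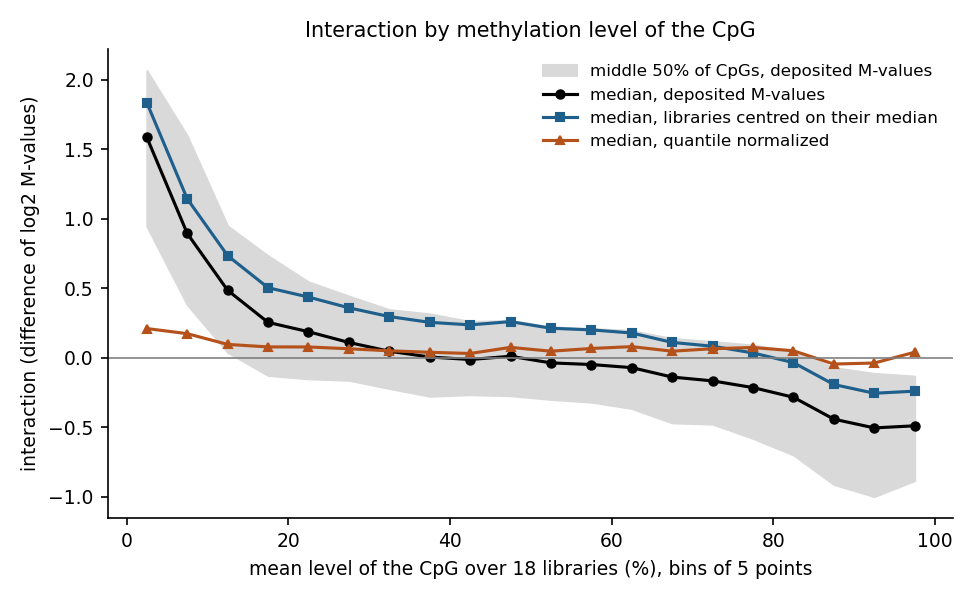
Median interaction (difference of log2 M-values) of CpGs in bins of 5 percentage points of mean level, from deposited values (black, with the middle 50% of CpGs in grey), after centring each library on its median (blue) and after quantile normalization (orange). The deposited medians cross from above 0 at low to below 0 at high levels, centring moves them up by 0.25, and quantile normalization leaves a nearly flat line.

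Across single CpGs, 880 of 31500 (2.79%) passed an unadjusted p of 0.01 in limma. Of these, 701 (2.23% of those tested) had a lower and 179 (0.568%) a higher interaction. The study used the same threshold, but in edgeR and for contrasts between pairs of treatments, so that its counts are not comparable with these. At a Benjamini-Hochberg adjusted p of 0.05, limma called 3 CpGs (0.00952%), all lower. With 1 library left out this count was 0 without Low ×5 library 1 (2399 at an unadjusted p of 0.05) or High ×5 library 1 or 3 (2965 and 3407), and 22 without Low Control library 1. In the limma fit on 12 libraries it was also 0, with 2932 at an unadjusted p of 0.05. The median interaction over all CpGs was -0.18, and 64.5% of CpGs lay below 0. When the libraries were centred on their medians, which moved every interaction by 0.25, limma called 745 CpGs, 381 higher and 364 lower. After quantile normalization it called 506, 223 higher and 283 lower. Both scalings bring the libraries' medians together, so that they also act on the balance of higher and lower calls. Of the 880 CpGs, 340 were called under all 3 scalings, 243 of them lower and 97 higher. The count also hung on single libraries, as limma called 1536 CpGs without Low Control library 1 and 650 without Low ×5 library 1.

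The called CpGs were crossovers. In 871 of the 880, ×5 went one way in high and the other way in low glucose, as it did in 55.0% of all CpGs. The test selects for such a pattern, so that this share describes the calls and supports nothing further. At the 701 lower CpGs the mean level was 78.9% in Low Control, 86.7% in Low ×5, 86.5% in High Control and 79.6% in High ×5. At the 179 higher CpGs it was 28.5%, 21.3%, 21.5% and 27.3% in the same order. Low Control thus lay near High ×5 and Low ×5 near High Control in both sets. The lower CpGs had a median level of 87.0% over the 18 libraries and the higher CpGs of 13.0%, against 75.5% for all CpGs. In percentage points the interaction reached 10 or more at 647 of the called CpGs, 546 of them lower, and it ranged from -41.9 to 32.4.

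**Figure D3:**
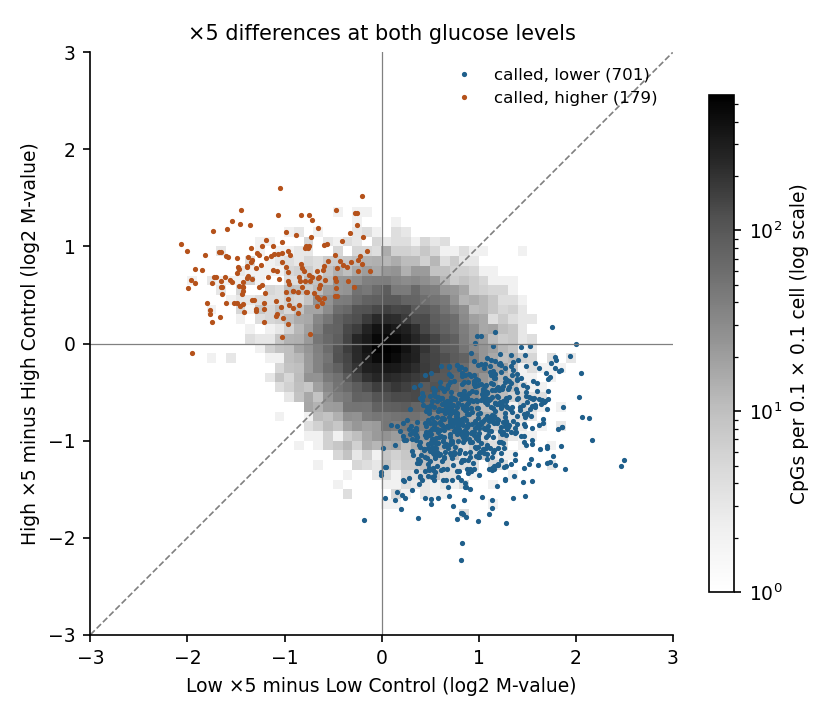
×5 minus Control in low glucose (horizontal) against the same in high glucose (vertical), both as differences of log2 M-values, with all CpGs as grey cells (darker for more CpGs, log scale) and the called CpGs as points. The 701 lower calls (blue) lie at lower right and the 179 higher calls (orange) at upper left, away from the dashed line on which both differences are equal.

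The CpG with the smallest p lay near SFRP1, which encodes a secreted antagonist of Wnt ligands, at chr27:35834463. Its level was 87.5%, 85.7% and 83.3% in Low Control and 94.1%, 92.3% and 92.2% in Low ×5. In high glucose it was 90.4%, 89.5% and 87.5% in Control and 75.0%, 80.0% and 75.7% in ×5. The libraries of Control and ×5 did not overlap at either concentration, with ×5 higher in low and lower in high glucose. Separation at both concentrations held at 25% of the called CpGs and 1.5% of all CpGs. Picking items by their p selects for it, so that here and below it describes the items and supports nothing further. The interaction was -2.44 ± 0.30 (SE), or -19.6 points (limma, Benjamini-Hochberg adjusted p = 0.0114). Relative to the library medians it was -2.19. Of the 130 CpGs given to SFRP1, 5 (3.85%) were called, against 2.79% of all CpGs, and all 5 were lower, as were 701 of all 880. The study listed 15 of the 130 as differentially methylated in these same libraries, which can raise the share. Over all its CpGs the gene stood at -0.41 ± 0.14, which did not pass the threshold (limma, Benjamini-Hochberg adjusted p = 0.0686).

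Near TFF3, a trefoil factor secreted by mucous epithelia, the CpG at chr1:144115768 had levels of 84.8%, 85.7% and 85.0% in Low Control, 94.6%, 93.0% and 93.8% in Low ×5, 91.5%, 91.2% and 90.9% in High Control, and 86.4%, 84.0% and 85.7% in High ×5. Control and ×5 were separate at both concentrations, and Low Control coincided with High ×5. The interaction was -2.23 ± 0.32 (limma, Benjamini-Hochberg adjusted p = 0.0389). Near CERS6, a ceramide synthase, the CpG at chr2:27698417 had levels of 93.2%, 90.9% and 90.9% in Low Control, 97.8%, 96.6% and 96.5% in Low ×5, 97.6%, 96.2% and 96.4% in High Control, and 91.4%, 91.3% and 93.0% in High ×5. Here too the libraries did not overlap within either concentration. The interaction was -2.96 ± 0.43 (limma, Benjamini-Hochberg adjusted p = 0.0389), although in percent it came to -10.1 points, since log2 ratios widen near full methylation. After quantile normalization no CpG had an adjusted p under 0.05 in limma, with 2159 at an unadjusted p of 0.05, and the SFRP1, TFF3 and CERS6 CpGs then had adjusted p-values of 0.0735, 0.21 and 0.0735 in limma. With each library left out in turn, their adjusted p-values rose to at most 0.0652, 0.181 and 0.181 in limma, the first without High ×5 library 3 and the others without Low Control library 3.

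The other 7 of the 10 CpGs with the smallest p-values had adjusted p-values from 0.0616 to 0.149 in limma. They lay near UBE2D1, a ubiquitin-conjugating enzyme (interaction -1.82), ADCYAP1, which encodes the neuropeptide PACAP (-2.73), PLOD3, a lysyl hydroxylase of collagen (-2.38), C14H8orf33 (-3.13 and 2.66), ADAMTS3, a procollagen protease (1.84), and a position on chromosome 6 with no gene given (-2.17). The lower CpG near C14H8orf33, at chr14:290711, has a neighbour 1 base away, as on the other strand, which had an interaction of the opposite sign, 1.61. The neighbour of that on chromosome 6 stood at 0.34. The CpG near ADAMTS3 at chr6:89202911 was the clearest in the upward direction. Its level was 41.5%, 38.1% and 38.9% in Low Control, 36.2%, 28.8% and 23.5% in Low ×5, 23.6%, 28.0% and 28.6% in High Control, and 45.8%, 41.2% and 48.9% in High ×5. Each ×5 library was below each Control library in low glucose and above it in high glucose.

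Clusters were formed of 3 or more CpGs less than 100 bp apart, and their mean M-values were tested, which uses CpGs that in part lie on the same reads. Of 2663 clusters, 174 (6.53%) passed an unadjusted p of 0.01, 154 (5.78%) lower and 20 (0.751%) higher. In limma 6 (0.225%) had a Benjamini-Hochberg adjusted p under 0.05, all lower. With each library left out in turn this count was 2 to 14, except that it was 249 without Low Control library 1. The clusters near ADCYAP1 and ACBD6 stayed under 0.05 under all 12 omissions (adjusted p up to 0.0453 and 0.0481 in limma). Those near PLCB1, TLE4, INTS10 and PPP2R2A did not (up to 0.0719, 0.0733, 0.122 and 0.131). At an unadjusted p of 0.01, after centring 105 were called, 63 higher and 42 lower, and after quantile normalization 47, 19 higher and 28 lower. Without Low Control library 1 there were 361, and without Low Control library 3 there were 91.

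The cluster with the smallest p held 4 CpGs near ADCYAP1, at chr24:36390820-36390871. Its level was 52.0%, 44.3% and 45.0% in Low Control, 54.2%, 54.0% and 58.3% in Low ×5, 62.8%, 65.6% and 58.9% in High Control, and 49.7%, 44.0% and 43.4% in High ×5. The groups did not overlap at either concentration, and High ×5 lay 16.7 points under High Control by its mean. The interaction was -1.86 ± 0.28, or -25.1 points (limma, Benjamini-Hochberg adjusted p = 0.00993). All 4 CpGs had a lower interaction, from -9.74 points at position 36390820 to -41.9 points at position 36390828. At the latter the mean level was 43.3% in Low Control, 56.4% in Low ×5, 67.6% in High Control and 38.9% in High ×5. This cluster and the one near PLCB1 kept an adjusted p under 0.05 in limma after centring (0.0196 each) and after quantile normalization (0.018 and 0.031).

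The 10 CpGs near ACBD6, an acyl-CoA-binding protein, at chr16:63167696-63167829 all had a lower interaction. Their mean level was 74.2%, 77.3% and 73.9% in Low Control, 81.3%, 82.9% and 82.9% in Low ×5, 80.9%, 79.7% and 81.1% in High Control, and 75.6%, 69.2% and 75.2% in High ×5. Control and ×5 were again separate at both concentrations. The interaction was -1.30 ± 0.20 (limma, Benjamini-Hochberg adjusted p = 0.00993).

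Near PLCB1, a phospholipase C that acts downstream of Gq-coupled receptors, the 5 CpGs at chr13:870767-870806 had a level of 79.2%, 70.0% and 69.4% in Low Control, 83.9%, 84.3% and 85.1% in Low ×5, 86.2%, 88.4% and 87.2% in High Control, and 86.2%, 79.0% and 85.9% in High ×5. Most of the interaction lay in low glucose, where the groups were separate by 11.6 points on their means. In high glucose ×5 library 1 was level with the lowest Control library, and library 2 lay furthest below. The interaction was -1.73 ± 0.29 (limma, Benjamini-Hochberg adjusted p = 0.0174).

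The cluster of 9 CpGs near TLE4, a Groucho-family corepressor, at chr8:56719064-56719176 had a level of 77.1%, 73.3% and 73.2% in Low Control, 81.4%, 82.6% and 82.4% in Low ×5, 81.6%, 80.6% and 80.9% in High Control, and 78.9%, 75.0% and 76.7% in High ×5. The groups did not overlap at either concentration. Its interaction was -1.26 ± 0.22 (limma, Benjamini-Hochberg adjusted p = 0.0174). The cluster of 4 CpGs near PPP2R2A, a regulatory subunit of protein phosphatase PP2A, at chr8:74732411-74732477 stood at -1.31 ± 0.25 (limma, Benjamini-Hochberg adjusted p = 0.0406). Its High Control libraries, at 85.9%, 81.0% and 86.0%, overlapped those of High ×5, at 78.4%, 81.6% and 81.0%.

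The cluster near INTS10, a subunit of the Integrator complex, at chr27:37641558-37641665 held 15 CpG positions and the smallest interaction of the 6, -0.73 ± 0.14 (limma, Benjamini-Hochberg adjusted p = 0.0395). Relative to the library medians it was -0.48. Of its positions, 14 formed 7 pairs 1 base apart, as the cytosines of both strands of a CpG are. In all 7 pairs the first position had the lower interaction, with a median of -0.90 against -0.12 at the second. The largest gap was at positions 37641599 and 37641600, with -1.79 and 0.07. This detail was picked out after the values were seen. Over the 5637 such pairs with no further neighbour in the whole table, the first position had the lower interaction in 48.7%.

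**Figure D4:**
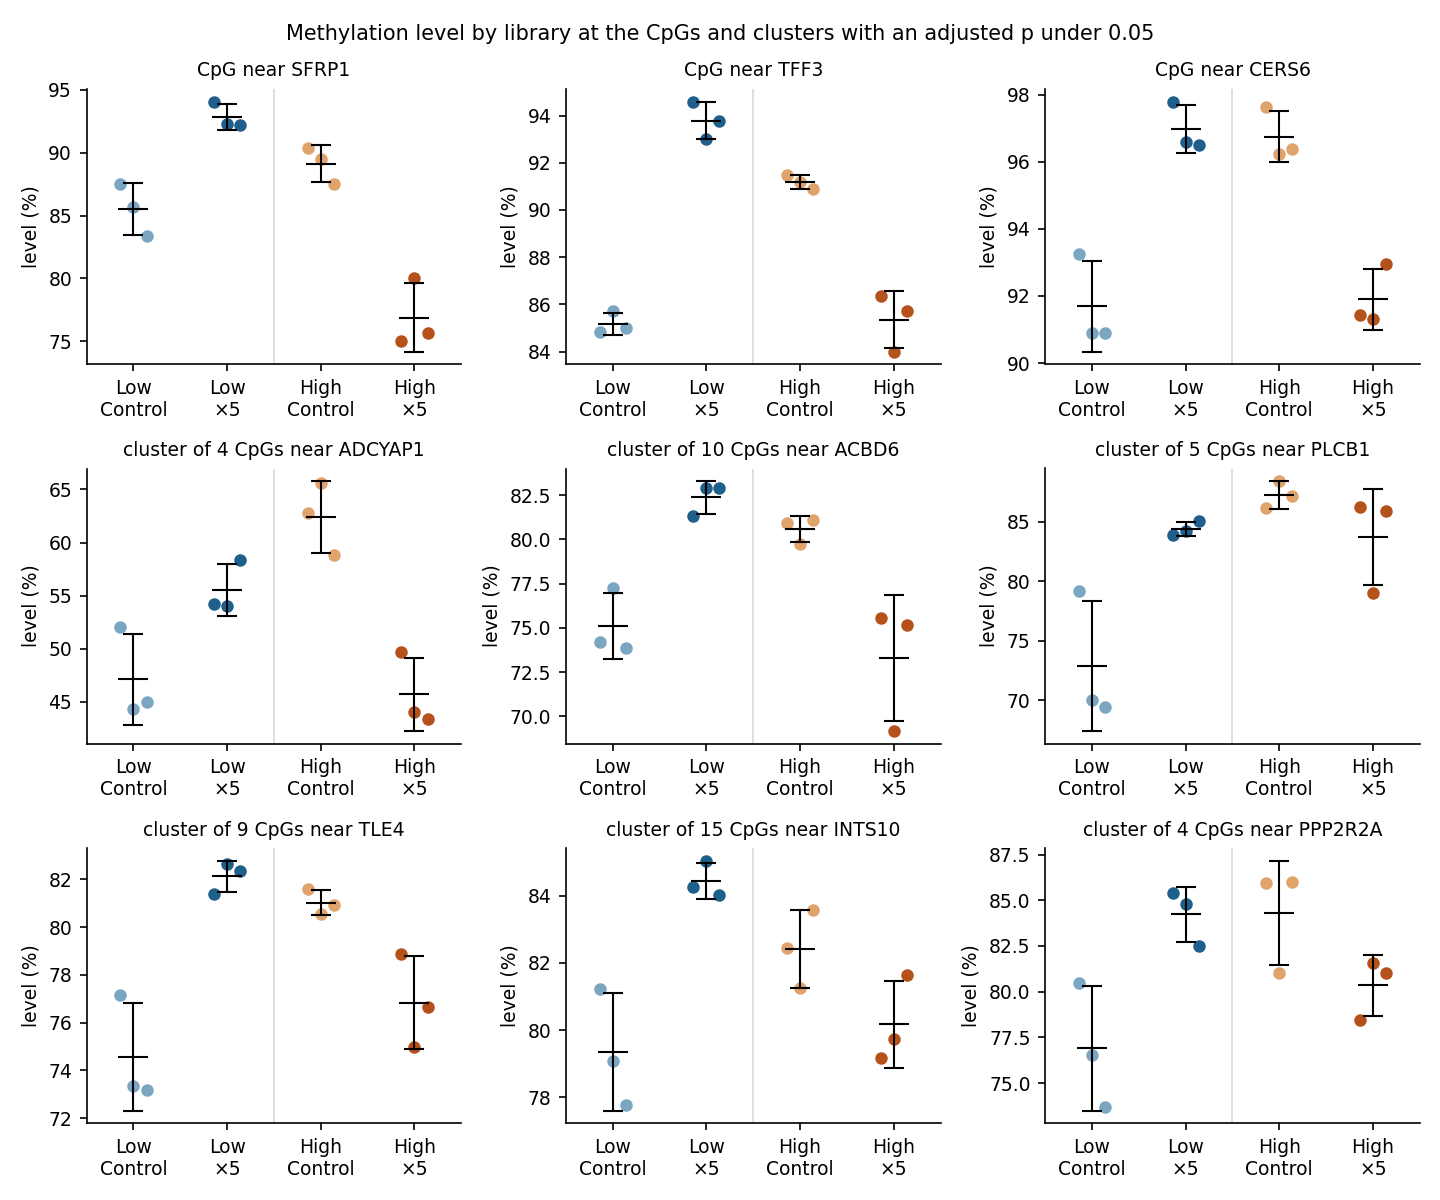
Methylation level (%) in each of the 12 libraries at the 3 CpGs and 6 clusters with a Benjamini-Hochberg adjusted p under 0.05, with points for libraries and a bar for the mean ± SD of 3. Axes do not start at 0. By their means, Low Control and High ×5 lie low and Low ×5 and High Control high in every panel but that near PLCB1, where 2 of the 3 High ×5 libraries, at 86.2% and 85.9%, lie near the lowest High Control library.

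The pairs gave a view of how local the interaction was. Signs matched in 57.8% of the 5637 pairs, with Pearson's r = 0.25 and Spearman's rho = 0.20 across pairs, whose members share libraries but mostly not reads. Of the 239 called positions in such pairs, the partner had the same sign in 69.5% and was itself called in 8 cases (3.35%), near the 2.79% of all CpGs. Of all CpGs 64.5% lay below 0, so that signs match in part without any local link. The share of matches that this alone would give was not computed, and nothing is concluded from these shares. The partners of the 194 lower calls had a median interaction of -0.39, and of the 45 higher calls of 0.11.

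For genes, the M-values of all CpGs given to a gene were averaged. The assignment rests on CpGs that the study listed as differentially methylated in these same libraries, so that the genes are not an independent sample. Of 268 genes with 3 or more CpGs, 234 had an interaction below 0, with a median of -0.26, and after centring 138 did, with a median of -0.01. In limma 40 genes (14.9%) passed an unadjusted p of 0.01, of which 38 (14.2%) were lower and 2 (0.746%) higher, and 21 (7.84%) had a Benjamini-Hochberg adjusted p under 0.05. This count was unstable. It was 161 without Low Control library 1 and 2 in the limma fit on 12 libraries. It was 0 without Low Control library 2 or 3, High Control library 1 or 3, or any of the 3 Low ×5 libraries, with 76 to 114 genes at an unadjusted p of 0.05 in limma. After centring and after quantile normalization it was also 0, with 52 and 32 genes at an unadjusted p of 0.05, and 18 and 15 at 0.01. Of the 40 genes, 7 were called under all 3 scalings.

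The gene with the smallest p was CETN1, a centrin, with an interaction of -1.53 ± 0.33 over 3 CpGs (limma, Benjamini-Hochberg adjusted p = 0.0462). Its level was 87.1%, 87.4% and 77.3% in Low Control, 90.7%, 87.7% and 90.7% in Low ×5, 92.2%, 91.0% and 94.2% in High Control, and 86.5%, 90.4% and 87.9% in High ×5. The groups were separate at both concentrations, narrowly in low glucose. The whole cluster of 14 CpGs around these 3 stood at -0.45 ± 0.27 and did not pass (limma, Benjamini-Hochberg adjusted p = 0.372), so that the value rests on few CpGs.

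ADCYAP1 was called under all 3 scalings at an unadjusted p of 0.01. Over 93 CpGs its level was 69.8%, 67.3% and 66.8% in Low Control, 71.0%, 70.1% and 69.7% in Low ×5, 70.7%, 69.9% and 70.2% in High Control, and 68.7%, 67.2% and 67.4% in High ×5. Control and ×5 were separate in high glucose, and in low glucose only Low Control library 1 reached the ×5 libraries. The interaction was -0.43 ± 0.10 (limma, Benjamini-Hochberg adjusted p = 0.0465). Relative to the library medians it was -0.18 (limma, Benjamini-Hochberg adjusted p = 0.096). Of its 93 CpGs, 10 (10.8%) were called, 8 lower and 2 higher, against 2.79% of all CpGs. The study listed 16 of the 93 as differentially methylated in these same libraries. This can raise the share, so that no enrichment is concluded. Of its 10 clusters 8 were below 0, from -1.86 to 0.11.

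The 2 genes called with a higher interaction were picked out after their values were seen. ZNF350, a zinc finger protein, stood at 0.46 ± 0.13 over 11 CpGs (limma, Benjamini-Hochberg adjusted p = 0.0473). MIR2887-2, a microRNA gene, stood at 1.14 ± 0.36 over 23 CpGs (limma, Benjamini-Hochberg adjusted p = 0.058). The name MIR2887-2 covers loci on 2 chromosomes here, so that its value is uncertain. Their CpGs were less methylated than most, with mean levels of 36.9% and 17.1%. The 5 genes with the most called CpGs were among those with many CpGs. C14H8orf33 had 41 of 1074 and ALG6, which adds glucose to the precursor of N-glycans, had 34 of 960. TLE4 had 23 of 688, BRINP1 18 of 415 and RNF122, a ubiquitin ligase, 16 of 734. These shares of 2.18 to 4.34% lay near the 2.79% of all CpGs.

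**Figure D5:**
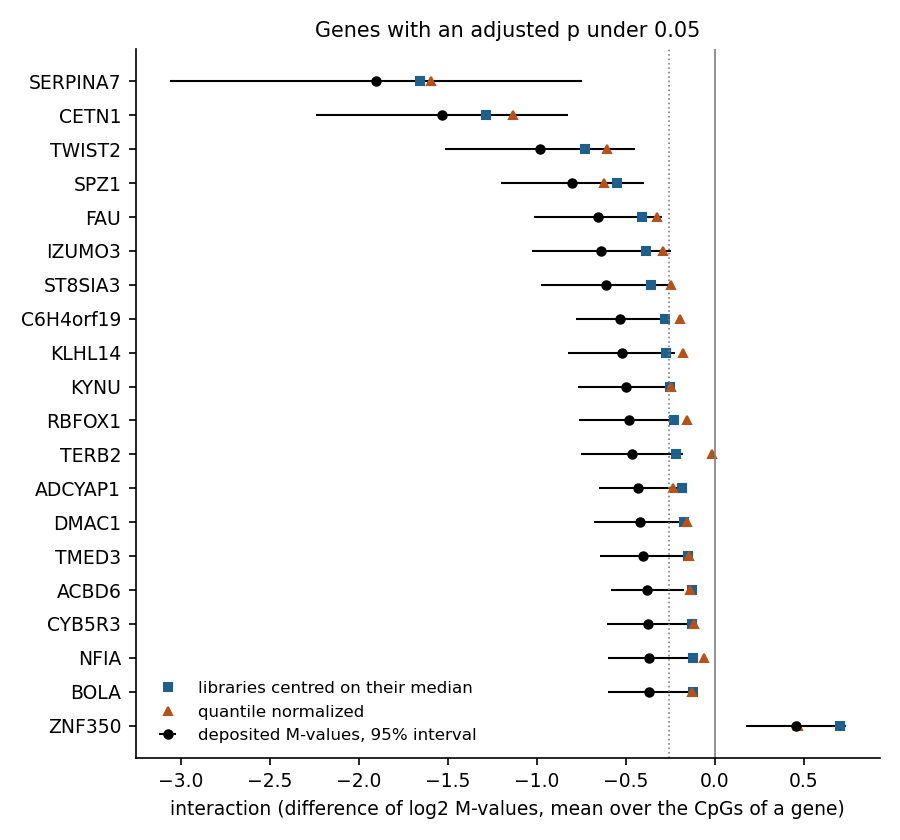
Interaction (difference of log2 M-values, mean over the CpGs of a gene) of 20 genes with a Benjamini-Hochberg adjusted p under 0.05, from deposited values with 95% intervals (black), after centring (blue) and after quantile normalization (orange). The dotted line marks the median of all 268 genes, -0.26. Of the 20 shown, 19 lie below 0 and ZNF350 at 0.46, and centring moves each to the right by 0.25.

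By function, the groups of genes followed the general shift. Of the nutrient and mitochondrial genes, 18 of 20 lay below 0, with a median of -0.28 against -0.26 for all genes, and after centring 13 did. In this group 5 genes passed an unadjusted p of 0.01 and 3 an adjusted p of 0.05 in limma, against 14.9% and 7.84% of all genes. These 3 were KYNU, which cleaves kynurenine in tryptophan breakdown (-0.50 ± 0.13), CYB5R3, a cytochrome b5 reductase (-0.37 ± 0.11), and DMAC1, an assembly factor of respiratory complex I (-0.42 ± 0.12). DMAC1 levels were 74.8%, 71.6% and 71.6% in Low Control, 75.9%, 74.7% and 74.8% in Low ×5, 75.5%, 74.4% and 75.0% in High Control, and 74.0%, 72.5% and 73.5% in High ×5. Of its 289 CpGs, 13 (4.50%) were called, 12 of them lower, against 2.79% of all CpGs. The study listed 22 of the 289 as differentially methylated in these same libraries, which can raise the share. In KYNU 1 of 46 CpGs (2.17%) was called and in CYB5R3 3 of 136 (2.21%), all lower, which is below the share of all CpGs. After quantile normalization DMAC1 and KYNU still passed an unadjusted p of 0.01 in limma, whereas CYB5R3 did not, and their Benjamini-Hochberg adjusted p-values were 0.153, 0.173 and 0.401.

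All 18 genes of synapse and neural adhesion lay below 0, with a median of -0.31, and 12 did after centring. Of them 4 passed an unadjusted p of 0.01 in limma, against 14.9% of all genes. They included GRIN3A, an NMDA receptor subunit (-0.86 ± 0.27 over 5 CpGs, limma, Benjamini-Hochberg adjusted p = 0.058). Of the 12 genes of Wnt regulation and developmental transcription factors, 11 lay below 0, with a median of -0.31, and 9 did after centring. The 2 called at an unadjusted p of 0.01 in limma, against 14.9% of all genes, were TWIST2 and NFIA. TWIST2, a basic helix-loop-helix factor of mesenchyme, stood at -0.98 ± 0.25 over 5 CpGs. NFIA, a nuclear factor I protein, stood at -0.37 ± 0.11 over 52 CpGs. Each had a Benjamini-Hochberg adjusted p under 0.05 in limma, as had 7.84% of all genes. The whole cluster of 31 CpGs around those of TWIST2 stood at -0.77 ± 0.24 (limma, Benjamini-Hochberg adjusted p = 0.137).

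Of 11 genes of G protein-coupled signalling, 10 lay below 0 (median -0.31). ADCYAP1 alone was called at an unadjusted p of 0.01 in limma, against 14.9% of all genes. VIPR2, a receptor of VIP and PACAP, stood at -0.39 ± 0.15 over 159 CpGs (limma, Benjamini-Hochberg adjusted p = 0.0746). Of 8 genes of MAP kinase and tyrosine kinase signalling, 7 lay below 0 (median -0.16, and 3 below 0 after centring). MAPK8, the kinase JNK1, alone was called at an unadjusted p of 0.01, against 14.9% of all genes (-0.43 ± 0.14, limma, Benjamini-Hochberg adjusted p = 0.0605). MAP2K6, an activator of p38, was not, and its sign turned with scaling (-0.16 from deposited values, 0.09 after centring).

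Among 12 immune genes 10 lay below 0 (median -0.21), 4 of them after centring. BOLA alone had an adjusted p under 0.05 in limma (-0.37 ± 0.11), against 7.84% of all genes. The name BOLA covers 2 separate loci here, so that its value is uncertain. IL2 stood at -0.16 and ARRDC3, an arrestin-like adaptor, at -0.31, and neither was called. Of 11 genes of small GTPases and their regulators 7 lay below 0 (median -0.26), and of 10 genes of chromatin and transcription 9 did (median -0.32). No gene was called in either at an unadjusted p of 0.01 in limma, against 14.9% of all genes. At 0.05, 4 and 6 passed, against 120 of all 268 genes. The enzymes that make S-adenosylmethionine or methylate DNA had no CpG assigned, since assignment went through the CpGs that the study listed. Tested CpGs outside that assignment were not searched for these genes, so that the interaction there was not examined.

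The interaction of ×2.5 shares the Control libraries with that of ×5, so that the values are given side by side only. The CpG near SFRP1 stood at -2.44 for ×5 and -0.63 for ×2.5, that near TFF3 at -2.23 and -0.98, and that near CERS6 at -2.96 and -2.07. The cluster near ADCYAP1 stood at -1.86 and -1.01, and that near ACBD6 at -1.30 and -0.62. The cluster near PLCB1 had nearly the same value for both, -1.73 and -1.76.

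The called CpGs were spread over the genome. All 30 chromosomes had a median interaction below 0 from deposited values. Called CpGs made up from 1.27% on chromosome 20 to 6.54% on chromosome 24, where 10 of the 28 called CpGs were given to ADCYAP1. Called CpGs fell in 282 of 612 regions set more than 10 kb apart. Of the 163 regions with 50 CpGs or more, 155 had a median below 0, and 53 did after centring.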

How the data were processed

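The authors used Bismark 0.22.3 on trimmed RRBS reads with bosTau8 as the reference, and kept CpGs after filters on coverage. They deposited log2 M-values, 1 for each of 31500 CpGs in 18 libraries. The offset added to the reads is not given in the sources used here. An offset draws M-values from few reads towards 0, and depth is unknown. The values were used as deposited, without scaling. Levels in percent still hold the offset.

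The interaction was tested with limma 3.58.1 in R 4.3.3, two-sided, with 1 mean per treatment over all 18 libraries, on CpGs, clusters (3 or more CpGs, gaps under 100 bp) and genes (3 or more CpGs). Calls used an unadjusted p of 0.01, and Benjamini-Hochberg adjusted p-values were taken over all features of a kind. Library values were compared with exact permutation tests. CpGs were assigned through the study's listed CpGs, with 25162 CpGs given to 365 genes, of which 363 symbols were in the RefSeq table. Tested CpGs between 2 consecutive listed CpGs of a gene were given to that gene.

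Named items were the 10 CpGs and 5 clusters with the smallest p and any with an adjusted p under 0.05, the 5 genes with the smallest p, the 5 with the most called CpGs, genes the study discusses, and up to 3 of each of 9 gene groups. The values of 1 gene are not reported here. The comparison, named genes and gene groups were chosen with earlier results of these data known. The fits were tested on simulated data. Alternatives were other eBayes settings, 12 libraries only, a replicate block, centring, quantile normalization, levels in place of M-values, other thresholds and gaps, and leaving out each library.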

Additional observations from a re-analysis of the deposited data

Results flagged for a closer look

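At the items below the interaction itself passed a Benjamini-Hochberg adjusted p of 0.05 in limma over all libraries. They comprise the CpGs near SFRP1 (-2.44), TFF3 (-2.23) and CERS6 (-2.96) and the clusters near ADCYAP1 (-1.86), ACBD6 (-1.30), PLCB1 (-1.73), TLE4 (-1.26), INTS10 (-0.73) and PPP2R2A (-1.31). Among the named genes they comprise CETN1 (-1.53), C6H4orf19 (-0.53), SPZ1 (-0.80), ADCYAP1 (-0.43), ACBD6 (-0.38), TWIST2 (-0.98), NFIA (-0.37), BOLA (-0.37), KYNU (-0.50), CYB5R3 (-0.37) and DMAC1 (-0.42). Only the ADCYAP1 and ACBD6 clusters kept an adjusted p under 0.05 in limma whichever of the 12 libraries was left out. The whole clusters around the CpGs of CETN1, SPZ1 and TWIST2 had adjusted p-values of 0.372, 0.12 and 0.137 in limma.

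Exact permutation tests, whose null is no ×5 difference at either concentration and not the interaction alone, passed for the mean level (-2.19 points), the SD of the M-values (-0.21), and the level of CpGs under 10% (4.12 points), from 50 to 90% (-3.09 points) and over 90% (-2.97 points). Only the SD kept a p under 0.05 whichever of the 12 libraries was left out, up to 0.035. These library values move together, and no cause was tested.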

How the results depend on the processing

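Against 880 called CpGs, limma called 506 after quantile normalization. Against 174 clusters it called 105 after centring and 47 after quantile normalization, and against 40 genes 18 and 15. With a Benjamini-Hochberg adjusted p under 0.05 in place of the unadjusted p, 3 CpGs, 6 clusters and 21 genes were called. The share of higher CpG calls was 20.3% from deposited values, 51.1% after centring and 44.1% after quantile normalization. For clusters these shares were 11.5%, 60% and 40.4%, and for genes 5%, 55.6% and 40%.

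Leaving out each library gave 650 to 1536 CpGs, 91 to 361 clusters and 17 to 113 genes, the highest each time without Low Control library 1. Clusters fell by over 1.5 times without High ×5 library 2 (109), High Control library 1 (110), Low ×5 library 1 (94) or Low Control library 3 (91). Genes did so without High ×5 library 2 (17), High Control library 1 (23) or 3 (24), Low ×5 library 1 (23), and Low Control library 2 (23) or 3 (18). The interaction of the mean level ranged from -2.89 to -1.68 points, of the SD from -0.27 to -0.17, of CpGs under 10% from 3.15 to 5.32, from 10 to 50% from 0.876 to 1.61, from 50 to 90% from -4.03 to -2.41, and over 90% from -3.80 to -2.33 points. The exact p of the mean level was 0.06 to 0.09 without Low Control library 2 or 3, any Low ×5 library, High Control library 1 or 3, or High ×5 library 2. That under 10% was 0.05 to 0.07 without any Low ×5 library, High Control library 1 or 3, or High ×5 library 1 or 2. That from 50 to 90% was 0.05 to 0.08 without Low Control library 3, any Low ×5 library, High Control library 1 or 3, or High ×5 library 2, and that over 90% was 0.05 without Low ×5 library 1. The class from 10 to 50% passed with glucose labels permuted (1.21 points, exact p = 0.04) and with classes set on the ×2.5 libraries (1.24 points, exact p = 0.04), and without High ×5 library 3 (exact p = 0.005).

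The sign turned for C14H8orf33 (0.0517 after centring, 0.0222 after quantile normalization), RNF122 (0.0193 and 0.0182), IL2 (0.0888 and 0.142) and MAP2K6 (0.092 and 0.0662), and after quantile normalization alone for ARFGEF1 (0.0438), CD200 (0.0158) and INTS10 (0.00567). The cause was not tested. Of 50 named items under the alternatives, 871 values kept direction and side of the threshold, 56 lost and 36 gained the call.

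Over CpGs, the deviations of same-numbered libraries from their treatment means had a median correlation of -0.000275 over 45 pairs, 1 pair over 0.1. For libraries of different number it was 0.000882 over 90 pairs, 0 over 0.1. Of 18 libraries, 8 correlated best with a library of their own number, and the count to be met without any link was not computed. Such a correlation does not register a shift of a whole library. Library 1 had the highest mean level in 5 of the 6 treatments. With a replicate block there were 884 CpGs, 183 clusters and 56 genes at an unadjusted p of 0.01 and 61 genes at an adjusted p under 0.05. The interaction of the mean level within replicate block numbers was -2.19 points (exact sign-flip p = 0.25, the smallest 3 can give). An alternative was chosen after seeing the data, namely to give CpGs to a gene only between listed CpGs at most 100 kb apart, and it called 39 genes. Depth limits the precision by an unknown amount.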

Other observations

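The ×2.5 libraries, which enter the interaction only through the shared estimate of spread, had SDs of the M-values of 1.72 to 1.80 in low and 1.65 to 1.77 in high glucose. Their mean levels were 69.1 to 69.8% and 68.1 to 69.7%. The widest spread within a treatment in both measures was that of Low Control, with an SD of 1.25 points for the mean level against 0.345 to 0.824 points in the other 5 treatments.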
